A study of Homo sapiens with 6 samples.

Results

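The genes described here are 10 direct transcriptional targets and feedback regulators of Wnt/beta-catenin signalling, AXIN2, LGR5, RNF43, ZNRF3, SOX9, DKK1, MYC, EPHB2, EPHB3 and TCF7. They were taken by gene symbol, and all 10 had a row among the 20026 gene rows kept. RNA was measured in the human colorectal cancer line HCT116, in 3 stably modified lines that each gave 2 libraries. One was labelled control, another over-expressed wild type TEAD4, and the third over-expressed the mutant TEAD4 K178R, in the usual notation a lysine replaced by an arginine. The vector, its promoter, and whether each line was 1 clone or a pool were not given in the sources used here. For wild type replicate 2 the genotype field reads TEAD5, while its title names TEAD4, and it was kept with the wild type group. The control titles hold the letters PQ, which the labels do not explain, and that group was taken from the genotype field. The labels do not say whether a line's 2 libraries were separate cultures, so the p-values cover no more than the spread of libraries, which may be technical. Each construct was in 1 line, so an effect of TEAD4 cannot be told apart from other differences between the lines. A change described with a construct is a difference between its line and the line compared.

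In canonical Wnt signalling, a Wnt ligand bound to a Frizzled receptor and its co-receptor LRP5 or LRP6 stops the degradation of beta-catenin. Beta-catenin then enters the nucleus and activates genes together with DNA-binding factors of the TCF/LEF family. Several of the activated genes act back on the pathway. AXIN2 is a scaffold of the complex that degrades beta-catenin, RNF43 and ZNRF3 are membrane ubiquitin ligases that remove Frizzled from the cell surface, and DKK1 is a secreted protein that blocks LRP5 and LRP6. HCT116 cells carry an activating mutation of CTNNB1, the gene of beta-catenin, so the pathway is active in them without added ligand. TEAD4 is a DNA-binding factor of the Hippo pathway, whose coactivators are YAP1 and TAZ.

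Promoter sequence was searched for every member that had a window, and is printed for DKK1 and RNF43. DKK1 was the most abundant of the 10 genes and rose in both TEAD4 lines, and RNF43 moved in opposite directions in the TEAD4 lines. RefSeq windows of 250 bases before to 50 after a start site (GRCh38.p14) were matched for 5 of the 10 genes, RNF43, DKK1, EPHB2, EPHB3 and TCF7, with 8 windows in all. AXIN2, LGR5, ZNRF3, SOX9 and MYC were not matched. Each window was searched on both strands for the TCF/LEF core CTTTGA, which reads TCAAAG where it lies on the opposite strand. The TEAD core searched was GGAATG, which reads CATTCC on the opposite strand. The cores do not overlap each other in the printed windows. Of 35116 such windows, 12.9% hold the first and 14.0% the second. The 250 bases before the start are printed 5′ to 3′ on the strand of the gene, with the matches in capitals. The DKK1 sequence lies on the plus strand at chr10:52314031-52314280, and the RNF43 sequence lies on the minus strand at chr17:58402722-58402971, before the more downstream of 2 RefSeq start windows of that gene. Of the 2 RNF43 windows, this one was chosen for printing because it held matches.
DKK1: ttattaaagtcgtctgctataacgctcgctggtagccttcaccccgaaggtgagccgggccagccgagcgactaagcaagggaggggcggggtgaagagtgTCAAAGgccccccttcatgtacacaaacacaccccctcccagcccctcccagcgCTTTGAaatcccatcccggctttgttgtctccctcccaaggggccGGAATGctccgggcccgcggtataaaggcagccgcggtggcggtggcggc
RNF43: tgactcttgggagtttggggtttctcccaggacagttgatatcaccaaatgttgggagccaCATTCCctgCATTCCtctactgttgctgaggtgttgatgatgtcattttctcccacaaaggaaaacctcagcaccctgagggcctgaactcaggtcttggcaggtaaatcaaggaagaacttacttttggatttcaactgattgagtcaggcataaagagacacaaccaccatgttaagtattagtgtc

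The DKK1 window held the TCF/LEF core at 2 places, on the opposite strand from -149 to -144 and on the strand of the gene from -95 to -90, and the TEAD core from -50 to -45, counted from the start site. The RNF43 window held the TEAD core at 2 places on the opposite strand, from -189 to -184 and from -180 to -175, and no TCF/LEF core. The other RNF43 window and those of EPHB2, EPHB3 and TCF7 held neither set of letters. A match describes the letters only and does not show that a factor binds there.

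**Figure D1:**
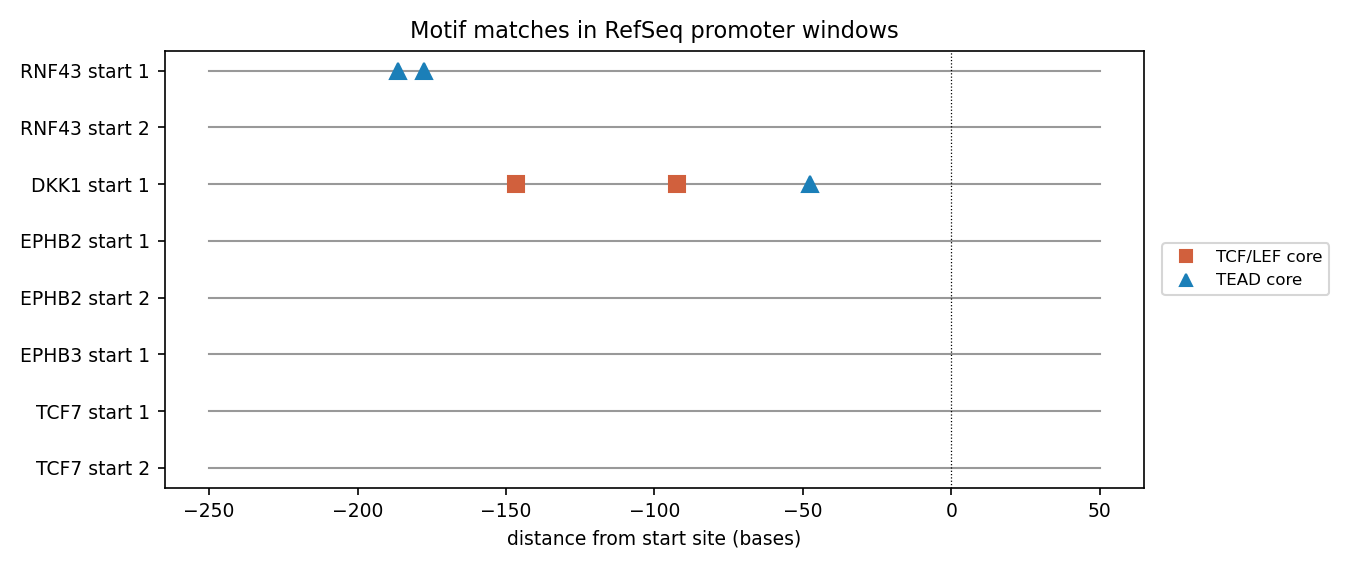
Matches to the TCF/LEF core (squares) and the TEAD core (triangles) in the 8 RefSeq promoter windows, by distance from the start site in bases; each grey line is a window. Matches are seen in the DKK1 window and in 1 of the 2 RNF43 windows.

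Values are FPKM (fragments per kilobase of transcript, scaled to the mapped total of the library) and are scaled by length, so levels of different genes can be set side by side. Depth relative to control replicate 1, read from the spacing of low values, lay between 0.914 and 1.06, and the number of reads is unknown. The tested set was the 11445 genes that reached 0.5 FPKM in 2 or more libraries, and 9 of the 10 genes were in it. Changes are differences of mean log2(FPKM + 1), which understates the change of genes near 1 FPKM, and a gene is said to rise or fall where the adjusted p was below 0.05. With 2 libraries against 2, an exact permutation test of a single gene could not pass that threshold, so all tests rest on the spread shared across genes and groups. TEAD4 itself read 16.6 and 17.5 FPKM in control, 86.4 and 84.4 in the wild type line, and 71.2 and 72.3 with K178R. It was lower with K178R than in the wild type line (log2 -0.25, adjusted p = 0.00131). The part of that difference in the results was not tested. Of 8 markers of colon epithelium, 6 were tested and CDH17 and VIL1 were below 0.03 FPKM in every library. EPCAM stood at 152 FPKM in control, 147 with wild type TEAD4 and 152 with K178R. KRT8 stood at 1298, 770 and 1381 in that order, and KRT18 at 691, 457 and 890. KRT19 stood at 502, 435 and 429, CLDN7 at 62.1, 55.3 and 64.2, and CDH1 at 11.4, 10.6 and 13.1. With wild type TEAD4, 0 of the 6 rose and 4 fell, beside 37.6% and 12.2% of all tested genes. After median-of-ratios scaling of the libraries 0 rose and 6 fell, beside 22.4% and 25.3%. With K178R, 3 rose and 1 fell, KRT19, beside 11.7% and 11.1%. The summed level of the 8 was 2692 to 2740 FPKM in control, 1845 to 1903 in the wild type line and 2911 to 2946 with K178R, and its part in the results was not tested.

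The 10 genes spanned a wide range of levels in the control line. DKK1 was by far the most abundant at 280 FPKM, above 98.8% of tested genes, followed by MYC at 59.1. SOX9 (9.33 FPKM), AXIN2 (7.65), RNF43 (4.79) and ZNRF3 (3.94) lay in the middle. The lowest of the tested members were TCF7 (1.35), EPHB3 (1.29) and EPHB2 (1.18), each above no more than 14.9% of tested genes. In control, each of the genes from DKK1 down to ZNRF3 was above the next in both libraries, while the libraries of TCF7 and EPHB3 overlapped.

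**Figure D2:**
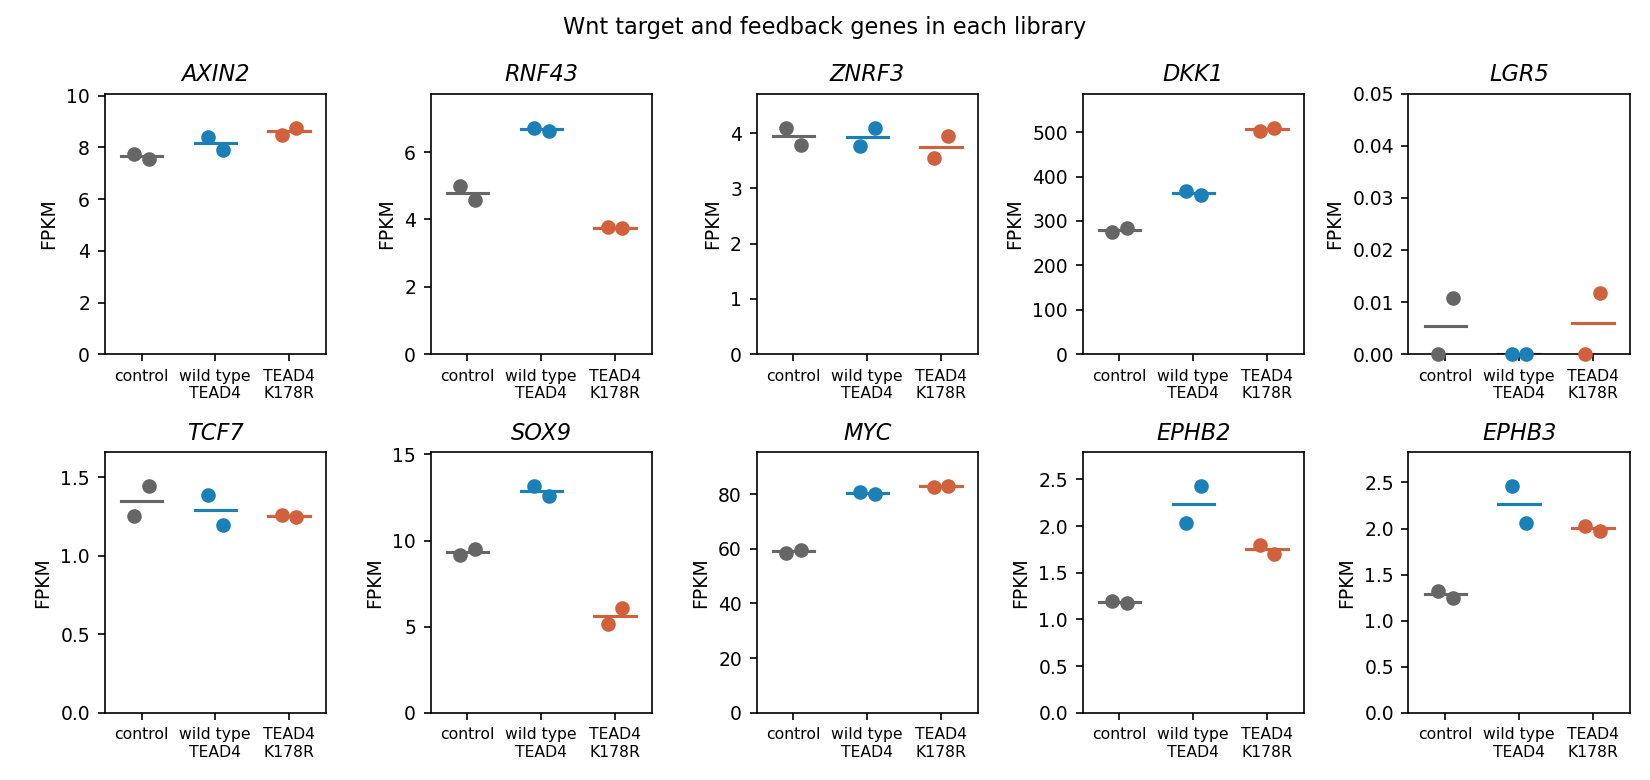
FPKM of each of the 10 genes in every library, on linear axes from 0; points are libraries (2 per line) and bars are their means. SOX9 and RNF43 are highest in the wild type line and lowest in the K178R line, DKK1 is highest in the K178R line, and LGR5 is at or near 0.

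Among the feedback inhibitors, DKK1 rose in both TEAD4 lines. It read 274 and 285 FPKM in control, 368 and 359 in the wild type line, and 502 and 510 with K178R. The 3 lines did not overlap, and the order was the same in every library: control lowest, K178R highest. The rise with wild type TEAD4 was 1.30 times in mean FPKM (log2 0.38, SE 0.03, adjusted p = 7.5e-05), and with K178R 1.81 times (log2 0.85, SE 0.03, adjusted p = 2.4e-06). K178R was also above wild type (log2 0.48, SE 0.03, adjusted p = 5e-05). By the size of its change in K178R against control, DKK1 had rank 99 of 11445 genes. Non-overlap alone is common in these data, since 54.9% of tested genes had both wild type libraries above both control libraries and 21.9% had both below. For K178R against control these shares were 32.7% and 30.3%, and for K178R against wild type 21.5% and 52.7%.

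RNF43 rose with wild type TEAD4 and fell with K178R. Its libraries read 5.0 and 4.58 FPKM in control, 6.73 and 6.61 in the wild type line, and 3.77 and 3.74 with K178R. The mean was 1.39 times that of control for wild type (log2 0.41, SE 0.05, adjusted p = 7.9e-04) and 0.784 times in the K178R line (log2 -0.28, SE 0.05, adjusted p = 0.00882). The difference between K178R and wild type was log2 -0.69 (SE 0.05, adjusted p = 1.5e-04), rank 170 of 11445. All 3 lines were apart, with control in the middle. The fall in K178R lost its call without control replicate 1 (log2 -0.23, adjusted p = 0.0573).

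ZNRF3, the paralog of RNF43 with the same role at the receptor, was not called in any comparison. It read 4.10 and 3.78 FPKM in control, 3.76 and 4.10 in the wild type line, and 3.55 and 3.95 with K178R, and the 3 lines overlapped. The difference from control was log2 -0.0019 (95% interval -0.16 to 0.16) with wild type TEAD4 and -0.06 (-0.21 to 0.10) with K178R. A change of the size seen for RNF43 in either line lies outside these intervals.

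AXIN2, often read as a general sign of beta-catenin activity, differed little between lines. It read 7.74 and 7.57 FPKM in control, 8.41 and 7.91 in the wild type line, and 8.48 and 8.77 with K178R. Both TEAD4 lines lay above control in each library, but neither difference was called. It was log2 0.08 (95% interval -0.03 to 0.19, adjusted p = 0.175) for wild type and 0.15 (0.05 to 0.26, adjusted p = 0.0513) for K178R. The K178R value lay at the threshold and passed it in 2 of 17 alternative analyses, with adjusted p from 0.0496 to 0.198 over all of them. Against wild type, K178R was log2 0.07 higher and not called (adjusted p = 0.244), but it was called after median-of-ratios scaling (log2 0.17, adjusted p = 0.0213).

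LGR5, a receptor for R-spondins and a marker of intestinal stem cells, was listed at 0 in 4 of the 6 libraries. The other 2 values were 0.0108 FPKM in control replicate 2 and 0.0118 in K178R replicate 2. It did not reach the filter, and no difference between lines can be seen at such levels. A value of 0 in these tables can also be a failed estimate. Its relative LGR4, which serves as the same kind of receptor, was expressed and rose in both TEAD4 lines, from 3.01 FPKM in control to 4.72 with wild type TEAD4 (log2 0.52, adjusted p = 0.00119) and 4.86 with K178R (log2 0.55, adjusted p = 0.00225). LGR6, the remaining member of that receptor group, stayed below 0.07 FPKM in every library.

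TCF7, a DNA-binding partner of beta-catenin and itself a Wnt target, was not called in any comparison. It read 1.25 and 1.44 FPKM in control, 1.39 and 1.19 in the wild type line, and 1.26 and 1.25 with K178R. The lines overlapped, and the 95% intervals of the log2 difference from control ran from -0.20 to 0.13 for wild type and from -0.23 to 0.11 for K178R. TCF7L2, the most abundant gene of its family here, fell with wild type TEAD4 from 22.3 to 17.6 FPKM (log2 -0.33, SE 0.04, adjusted p = 9.6e-04). In K178R it stood at 20.6 FPKM, which was not called against control (adjusted p = 0.119) and was above wild type (log2 0.22, adjusted p = 0.00666). TCF7L1, a mainly repressive member of the family, stood at 3.29 FPKM in control and rose to 5.03 (wild type) and 4.57 (K178R). LEF1 was listed at 0 in every library.

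SOX9, a transcription factor of the intestinal crypt base, moved most between the TEAD4 lines. Its libraries read 9.17 and 9.49 FPKM in control, 13.2 and 12.6 in the wild type line, and 5.16 and 6.07 with K178R. All 3 lines were apart, with wild type above control and K178R below it in each library. SOX9 rose 1.38 times with wild type TEAD4 (log2 0.43, SE 0.07, adjusted p = 0.0018) and fell to 0.602 of control with K178R (log2 -0.65, SE 0.07, adjusted p = 7.4e-04). K178R was at 0.436 of wild type (log2 -1.07, 95% interval -1.23 to -0.92, adjusted p = 7.8e-05), rank 25 of 11445 genes by the size of the difference. The 3 tested genes nearest to SOX9 over the 6 libraries were TEF, NEURL1B and TM7SF2, at Euclidean distances of 0.195, 0.197 and 0.219 between centred log2 values. TEF had 4.92 FPKM in control, 6.07 in wild type and 2.67 with K178R, and NEURL1B had 2.51, 3.61 and 1.45 in that order.

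MYC, the transcription factor that drives growth and ribosome production, rose by similar amounts in both lines. It read 58.5 and 59.6 FPKM in control, 80.7 and 80.2 in the wild type line, and 82.7 and 83.0 with K178R. The libraries of a line lay close together, and both TEAD4 lines were clear of control. The rise was 1.36 times with wild type TEAD4 (log2 0.44, SE 0.03, adjusted p = 2.8e-05) and 1.40 times with K178R (log2 0.48, SE 0.03, adjusted p = 2.2e-05). The difference between the TEAD4 lines was log2 0.04 (95% interval -0.02 to 0.10, adjusted p = 0.216) and was not called. After median-of-ratios scaling it was called, with K178R higher (log2 0.15, adjusted p = 0.00348).

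EPHB2 and EPHB3, receptors for ephrins that position cells along the crypt, rose in both lines from low levels. EPHB2 read 1.19 and 1.17 FPKM in control, 2.04 and 2.43 in the wild type line, and 1.80 and 1.70 with K178R. EPHB3 read 1.32 and 1.25 in control, 2.46 and 2.06 in the wild type line, and 2.02 and 1.98 with K178R. Every library of the TEAD4 lines was above every control library for both genes. With wild type TEAD4 the mean of EPHB2 was 1.89 times control (log2 0.56, SE 0.07, adjusted p = 7.8e-04) and that of EPHB3 was 1.76 times (log2 0.51, SE 0.07, adjusted p = 0.00115). With K178R the ratios were 1.48 for EPHB2 (log2 0.33, adjusted p = 0.0164) and 1.55 for EPHB3 (log2 0.39, adjusted p = 0.00855). The K178R calls were the less firm ones. For EPHB2 the call was lost in 5 of 17 alternatives, those that averaged the control libraries or left out a control or K178R library (highest adjusted p = 0.0821), and for EPHB3 in 2, without control replicate 2 (adjusted p = 0.055) and with the control libraries averaged (adjusted p = 0.0509). Against wild type, EPHB2 was lower in K178R (log2 -0.23, adjusted p = 0.036), a call lost in 10 of 17 alternatives, while EPHB3 was not called there (log2 -0.12, 95% interval -0.29 to 0.05).

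Their ligands did not all follow. EFNB2, an ephrin bound by EPHB receptors, fell from 2.44 FPKM in control to 1.56 with wild type TEAD4 (log2 -0.43, adjusted p = 0.00137) and to 1.44 with K178R (log2 -0.49, adjusted p = 0.00181). EFNB1, another such ligand, read 10.2 FPKM in control, 11.1 in the wild type line and 9.73 with K178R, and neither line was called against control. EPHB4, the most abundant EPHB receptor among those listed, passed the test in no comparison (20.3, 20.5 and 20.1 FPKM). Of 12 tested ephrins and other EPH receptors, 5 rose and 1 fell with wild type TEAD4, led by EFNA3, EFNA1 and EPHA1 (log2 0.43 each) and EFNB2. With K178R, 2 rose and 2 fell, EFNA1 (log2 0.36), EPHA1 (log2 0.27), EFNB2 and EFNA2 (log2 -0.26). Between the TEAD4 lines, 3 were lower in K178R, EFNA3 (log2 -0.56), EPHB6 (log2 -0.30) and EFNB1 (log2 -0.17). After median-of-ratios scaling the counts were 5 and 2 for wild type, 2 and 2 for K178R, and 1 higher and 2 lower between the lines, where EFNB1 lost its call (log2 -0.07, adjusted p = 0.321). Beside these counts, 37.6% of all tested genes rose and 12.2% fell with wild type TEAD4, and 11.7% and 11.1% with K178R. Between the lines 10.4% were higher and 34.5% lower in K178R. Rescaled, the shares were 22.4% and 25.3%, 10.9% and 11.9%, and 22.8% and 19.7%.

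Counted together, 6 of the 9 tested members rose and 0 fell with wild type TEAD4, while of all tested genes 49.9% were called, 37.6% as higher and 12.2% as lower. Under median-of-ratios scaling, which sets each library by its median ratio to a reference, the 6 and 0 stayed, beside shares of 22.4% and 25.3% among all genes. With K178R, 4 rose and 2 fell, where 22.8% of all genes were called, 11.7% up and 11.1% down (10.9% and 11.9% when rescaled). Between the TEAD4 lines, 1 member was higher in K178R and 3 were lower, against 44.9% of all genes called, 10.4% and 34.5% by direction. That split became 3 and 2 when rescaled, with 22.8% and 19.7% of all genes. The median log2 change of the tested members was 0.41 with wild type TEAD4, 0.15 with K178R and -0.06 between the lines, beside 0.09, 0.00 and -0.08 over all tested genes. Median-of-ratios scaling moved the median of all genes in wild type against control from 0.09 to -0.01. After it the 6 rises with wild type TEAD4 were DKK1 log2 0.25, RNF43 log2 0.30, SOX9 log2 0.31, MYC log2 0.32, EPHB3 log2 0.43 and EPHB2 log2 0.49, each still called. The comparisons with control share the control libraries and are given side by side only.

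**Figure D3:**
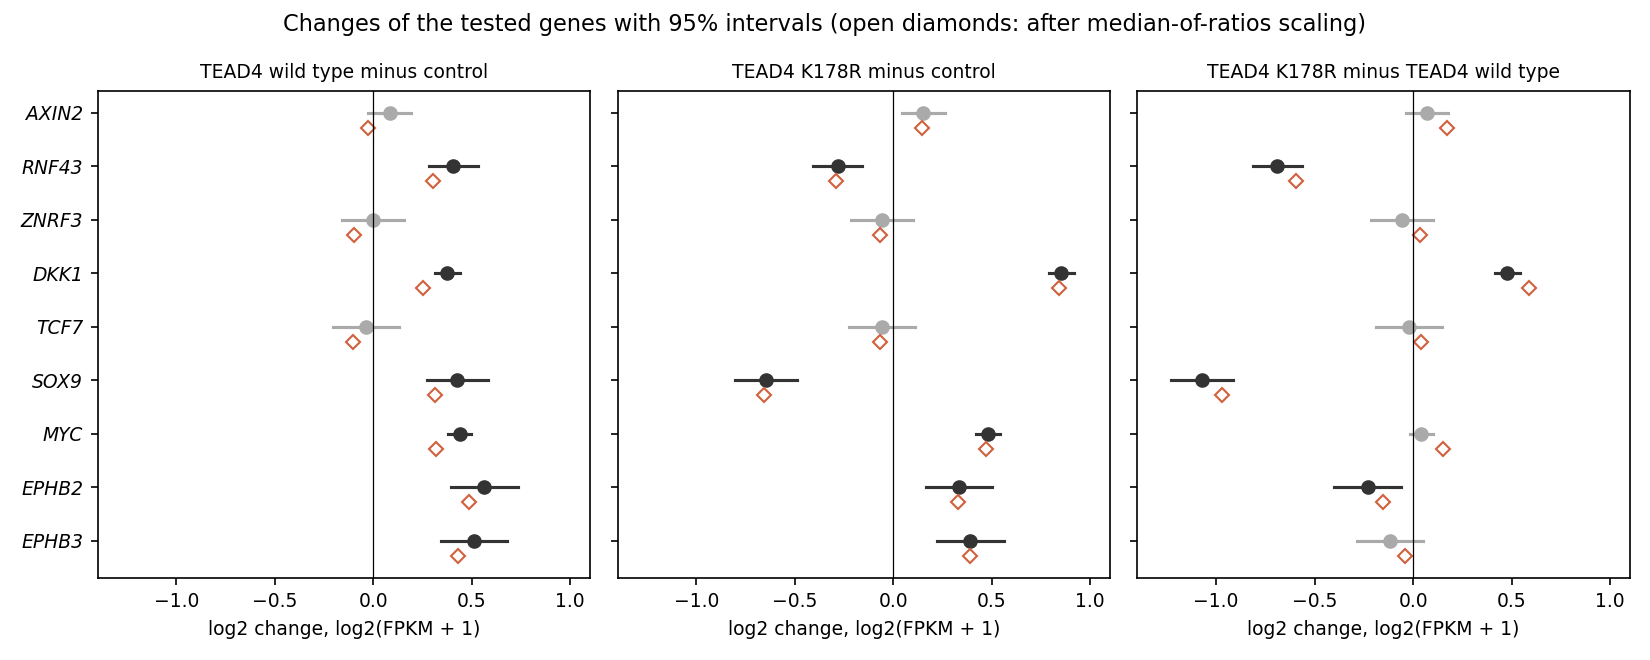
Log2 change of the 9 tested members on the log2(FPKM + 1) scale in the 3 comparisons; filled circles with bars are estimates with 95% intervals (black called, grey not called) and open diamonds are estimates after median-of-ratios scaling. SOX9 and RNF43 lie on opposite sides of 0 in the first and second panels, and DKK1 lies to the right in all 3.

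The rest of the pathway was followed in lists by role, 98 genes besides the 10, of which 60 were tested. Among the 60, WNT6, WNT10A and ROR1 passed the filter only through values of the TEAD4 lines. With wild type TEAD4, 32 rose and 8 fell, and with K178R, 11 rose and 10 fell. Between the lines, 2 were higher and 23 lower in K178R. After median-of-ratios scaling 59 were tested, and these counts were 17 and 11, 11 and 10, and 8 and 12. The split by direction in both comparisons with the wild type line thus moved with the scaling. Of all tested genes, 37.6% rose and 12.2% fell with wild type TEAD4, and 11.7% and 11.1% with K178R. Between the lines 10.4% were higher and 34.5% lower in K178R. Rescaled, the shares were 22.4% and 25.3%, 10.9% and 11.9%, and 22.8% and 19.7%. The median change of the 60 genes with wild type TEAD4 was log2 0.15, beside 0.09 for all genes. For K178R against control, the count of 21 called genes fell to between 11 and 13 when a control or K178R library was left out.

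Of 10 tested genes of ligands and their secretion, 6 rose and 1 fell with wild type TEAD4. After median-of-ratios scaling WNT6 no longer passed the filter, and of 9 tested genes 4 rose and 1 fell. The shares of all tested genes were 37.6% and 12.2% (22.4% and 25.3% after scaling). The ligand WNT7B went up from 1.08 FPKM to 3.58 (log2 1.14, SE 0.09, adjusted p = 1.0e-04), and it stood at 1.22 in K178R, where it was not called against control. WNT16 fell in each TEAD4 line. Control libraries averaged 16.3 FPKM, wild type 9.39 (log2 -0.73) and K178R 7.81 (log2 -0.97). PORCN, which attaches the lipid that ligands need, rose from 1.33 to 2.86 and 2.22 FPKM (log2 0.73 and 0.47). WLS, the carrier that brings them to the surface, rose from 14.2 to 22.9 and 17.4 FPKM (log2 0.65 and 0.28). With K178R, 4 rose and 2 fell (all genes 11.7% and 11.1%), with WNT3 (log2 0.54) among the rises. Between the lines 6 were lower in K178R and 0 higher (4 and 0 after scaling), led by WNT7B (log2 -1.05) and WNT10A (log2 -0.49). Of all genes, 34.5% were lower and 10.4% higher there (19.7% and 22.8% after scaling). WNT10A read 0.374 and 0.453 FPKM in control, 0.695 and 0.785 in the wild type line, and 0.192 and 0.296 with K178R. It passed the filter only through the wild type line, where it was highest, so its calls are not independent of the filter. WNT6 passed through the wild type line alone too, and was not called in any comparison.

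Of 13 tested receptors, 9 rose and 0 fell with wild type TEAD4 (6 and 1 after scaling), led by LGR4, FZD3 (log2 0.40), ROR2 (log2 0.39) and FZD7 (log2 0.36). The shares of all tested genes were 37.6% and 12.2% (22.4% and 25.3% after scaling). FZD7 lost its call after scaling (log2 0.26, adjusted p = 0.0572). With K178R, 4 receptors rose and 1 fell (all genes 11.7% and 11.1%), FZD2 (log2 -0.32) being the one that fell. Against wild type, FZD2 in K178R was lower as well (log2 -0.47, adjusted p = 9.0e-04). ROR1, counted among the rises in both TEAD4 lines, read 0.405 and 0.420 FPKM in control. It read 0.669 and 0.680 in the wild type line, and 0.677 and 0.786 with K178R. ROR1 passed the filter only through the TEAD4 lines, so its rises are not independent of the filter. The list of antagonists besides DKK1 holds secreted proteins and the membrane receptors KREMEN1 and KREMEN2, and 3 of its 12 genes were tested, NOTUM being the secreted one. KREMEN1 and KREMEN2, which bind DKK proteins, rose with wild type TEAD4 (log2 0.41 and 0.55), and KREMEN2 lost its call after scaling (adjusted p = 0.0799). NOTUM, an enzyme that removes the lipid from Wnt ligands and is a target too, averaged 2.32 FPKM in control, 2.53 with wild type TEAD4 and 1.65 with K178R. It fell in K178R (log2 -0.33, adjusted p = 0.00754).

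Among genes of cytoplasmic transduction, CTNNB1 read 78.9 FPKM in control, 85.4 with wild type TEAD4 (log2 0.11, adjusted p = 0.00977) and 78.7 with K178R. Its rise with wild type TEAD4 was not kept after scaling (log2 -0.01, adjusted p = 0.792). APC, a scaffold of the degradation complex, read 3.77, 4.28 and 4.24 FPKM, and its call in wild type (log2 0.15, adjusted p = 0.0346) was lost after scaling too (adjusted p = 0.44). Of 16 tested, 7 rose and 1 fell with wild type TEAD4 (2 and 3 after scaling), with DVL3 (log2 0.37) and BTRC (log2 0.31) leading, and 1 rose and 1 fell with K178R. BTRC, which marks beta-catenin for degradation, and DVL3, which relays the signal from Frizzled, were both lower when K178R was set against wild type (log2 -0.36 each). Of 11 tested nuclear factors, 6 rose and 2 fell with wild type TEAD4 (3 and 2 after scaling), the corepressor TLE2 (log2 0.41) and the beta-catenin inhibitor CTNNBIP1 (log2 0.36) among the rises. With K178R, 2 rose and 1 fell. Beside the counts of the cytoplasmic and nuclear lists, 37.6% of all tested genes rose and 12.2% fell with wild type TEAD4. These shares were 22.4% and 25.3% after scaling, and for K178R they were 11.7% and 11.1%.

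Among other Wnt targets, falls outnumbered rises in both lines. Of 8 tested, 2 rose and 4 fell with wild type TEAD4 (1 and 4 after scaling), and 0 rose and 5 fell with K178R. The shares of all tested genes were 37.6% and 12.2% (22.4% and 25.3% after scaling), and 11.7% and 11.1% with K178R. Cyclin D1 (CCND1) fell from 193 FPKM to 166 and 164 (log2 -0.22 and -0.24). The adhesion receptor CD44 fell from 33.7 FPKM to 29.5 and 26.3 (log2 -0.19 and -0.35), and BMP4 fell most (log2 -2.84 and -2.70). NKD2, a feedback inhibitor that binds the Dishevelled proteins, rose with wild type TEAD4 from 2.34 to 4.003 FPKM (log2 0.58, adjusted p = 4.7e-04). In K178R it stood at 1.96 FPKM, not called against control (log2 -0.17, adjusted p = 0.11) and below its wild type level (log2 -0.76, adjusted p = 2.5e-04). ASCL2 and SMOC2, which with LGR5 mark intestinal stem cells, were listed at 0 in every library.

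**Figure D4:**
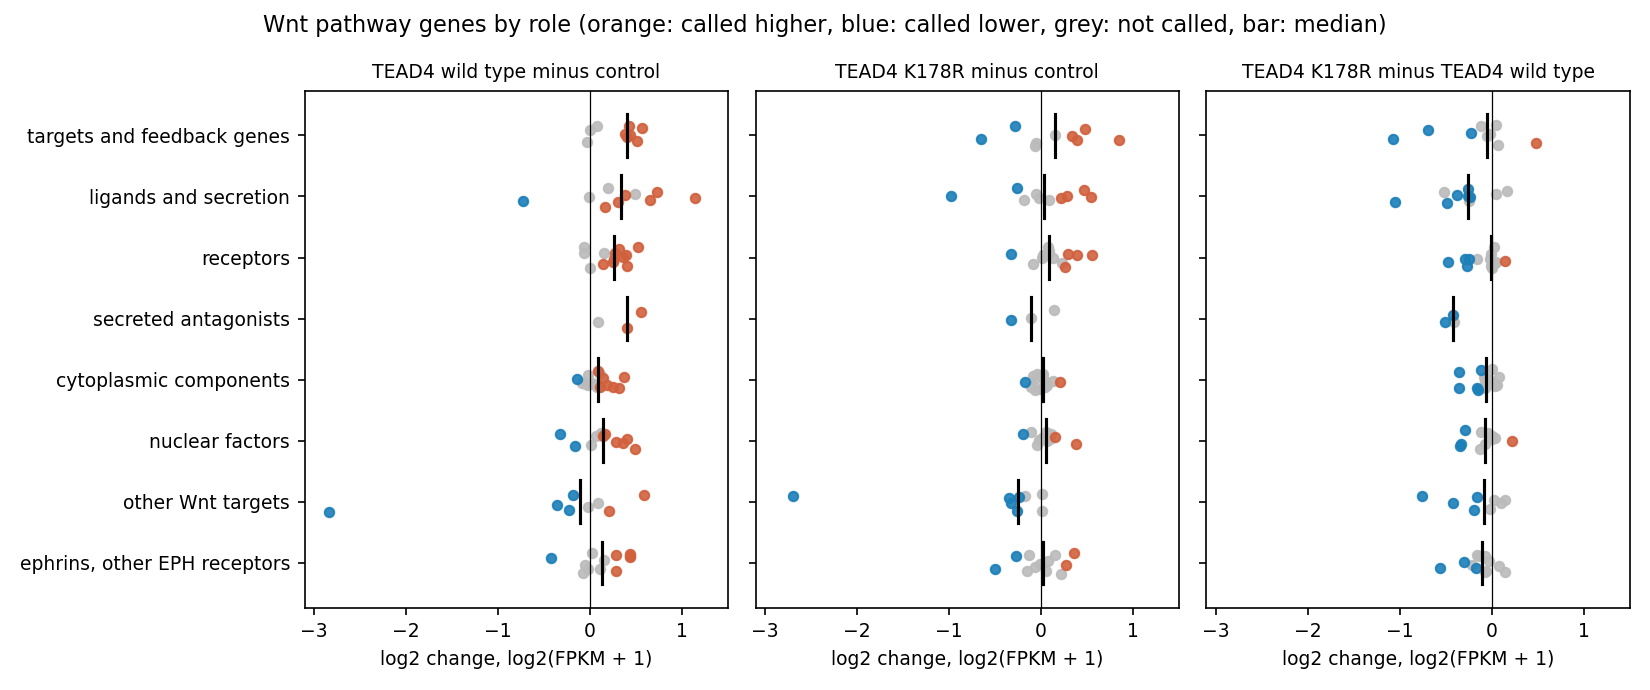
Log2 change of every tested gene in 8 groups by role, in the 3 comparisons on the log2(FPKM + 1) scale; each point is a gene (orange called higher, blue called lower, grey not called) and the black bar is the median of the group. NOTUM stands in 2 groups; the far left point of the first and second panels is BMP4.

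Genes of intestinal differentiation, which oppose the stem cell genes along the crypt, were mostly below the filter, with 4 of 16 tested. The carbonic anhydrase CA2 rose in both lines, from 15.4 FPKM to 29.1 and 24.9 (log2 0.87 and 0.65). KRT20, a keratin of surface cells, rose with K178R from 1.30 to 3.23 FPKM (log2 0.89, adjusted p = 0.00574), and KLF4 fell from 5.58 to 2.47 (log2 -0.92, adjusted p = 3.9e-04). CDX2, an intestinal transcription factor, rose with wild type TEAD4 from 3.29 to 4.15 FPKM (log2 0.26, adjusted p = 0.00717) and was not called in K178R against control.

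Markers of other cells were few and low. The summed level of 8 fibroblast markers was 1.53 to 1.76 FPKM in control, 3.64 to 3.78 in the wild type line and 1.73 to 1.90 with K178R, with 1 gene, COL1A1, above the filter and COL1A2 and DCN at 0. For 7 leukocyte markers the sums were 4.31 to 4.65, 5.196 to 5.199, and 2.67 to 3.15 in the same order of lines, with CD3E at 0 and PTPRC at or near 0. For 6 endothelial markers they were 2.02 to 2.13, 1.97 to 2.47 and 1.37 to 1.52. The leukocyte sum, mostly CD68 and CORO1A, has the same order across the lines as SOX9 and RNF43, although CD68 alone is highest in control, and its part in those results was not tested. Read assignment at shared exons was not tested either. In GENCODE release 29 (GRCh38) 57.6% of the exonic bases of RNF43 lie in exons of AC004687.2 on the same strand, 20.3% in those of TSPOAP1-AS1 on the opposite strand and 1.9% in those of SUPT4H1. SUPT4H1 fell with K178R (log2 -0.18, adjusted p = 0.00843) and was not called with wild type TEAD4 (log2 0.03). AXIN2 shares 25.2% of its exonic bases with AC004805.1, DKK1 9.6% with PRKG1-AS1 and TCF7 2.1% with SKP1, while ZNRF3, SOX9, MYC and EPHB3 share none. SKP1 rose with wild type TEAD4 (log2 0.25, adjusted p = 4.2e-04) and was not called with K178R (log2 0.05). AC004687.2, TSPOAP1-AS1, AC004805.1 and PRKG1-AS1 had no row under these names among the gene rows kept.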

How the data were processed

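RNA sequencing libraries of 3 stable HCT116 lines were analysed, 2 per line, grouped by their labels. The authors deposited 1 table of FPKM values per library with 20030 rows. Bowtie 0.12.2 and the genome build hg18 are named, per the submitters' processing notes. The program behind the FPKM values, the annotation and the strand handling were not given in the sources used here. Of these rows, 4 whose identifier is repeated were left out.

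FPKM values are not counts, so log2(FPKM + 1) was fitted with limma 3.58.1 (R 4.3.3, trend) over all 6 libraries, with the 3 group means as coefficients. Tests were two-sided and covered the 11445 genes that reached 0.5 FPKM in 2 or more libraries, with p-values adjusted over all of them by Benjamini-Hochberg and a threshold of 0.05. On simulated data of that size for K178R against control, the fit recovered 26 of 50 genes changed by log2 0.25 and 50 of 50 changed by 1. It recovered 50 of 50 changed by log2 0.5 and 46 of 50 changed by log2 -0.5, with 6 false calls among unchanged genes. Far fewer genes were changed in the simulation than were called in the data, so these rates need not hold for the data.

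The 10 members and the gene lists were chosen with earlier results of these data known. Besides the members, text names CTNNB1, APC, TCF7L2, LEF1 and TEAD4, at most 4 called genes of each list and comparison with the largest changes, and the 3 genes nearest to the member with the widest range. Genes outside that rule (EPHB4, LGR6, ASCL2, SMOC2, SUPT4H1 and single markers) were named after their values were seen. Alternatives, 17 in all, changed the pseudocount, the filter, the scaling, the variance model or the libraries used.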

Additional observations from a re-analysis of the deposited data

Results flagged for a closer look

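RNF43 and SOX9 moved in opposite directions from control in the wild type and K178R lines, each change being called, and the difference between the lines was itself called. For RNF43 that difference, K178R minus wild type, was log2 -0.69 (adjusted p = 1.5e-04), and for SOX9 it was log2 -1.07 (adjusted p = 7.8e-05). Both were called with the same sign in all 17 alternatives, between log2 -0.81 and -0.59 for RNF43 and between log2 -1.19 and -0.97 for SOX9. Groups of 2 libraries are too small to look for a library that stands apart within a group.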

How the results depend on the processing

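Over the 17 alternatives, the rises of DKK1, MYC, RNF43, SOX9, EPHB2 and EPHB3 with wild type TEAD4, the rises of DKK1 and MYC and the fall of SOX9 with K178R, and the differences of DKK1, RNF43 and SOX9 between the TEAD4 lines kept their direction and call. Signs turned only for values that were never called. In wild type against control these were AXIN2 after median-of-ratios (log2 -0.0271) and upper-quartile scaling (log2 -0.0135), ZNRF3 without control or wild type replicate 1 (range over left-out libraries -0.0511 to 0.0474), and TCF7 without control or wild type replicate 2 (-0.097 to 0.0258). In K178R against control it was ZNRF3 without K178R replicate 1 (-0.1181 to 0.0041). Between the TEAD4 lines these were ZNRF3 after median-of-ratios (log2 0.0339) and upper-quartile scaling (log2 0.0175) or without K178R replicate 1 (-0.1162 to 0.006), and TCF7 after the same scalings (log2 0.0396 and 0.0282) or without wild type replicate 1 (-0.0843 to 0.0384).

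For K178R against control, 21 of the wider Wnt genes were called, 11 with the control libraries averaged, and 11 to 20 when each library was left out in turn, the values of 11 to 13 being those without a control or K178R library. Over all genes 22.8% were called there, 10.8% with the control libraries averaged and 12.0% to 13.4% without a library of either line. Such fits have fewer samples, and other causes were not tested. The replicate numbers shared by the titles did not pair the libraries, with correlations of deviations between -0.031 and 0.032 over 11445 genes. With a replicate block the members called numbered 6, 6 and 4, as without it, and the wider Wnt genes called were 38, 21 and 24, against 40, 21 and 25 without it. FPKM gives no read number, so counting error of EPHB2, EPHB3 and TCF7 near 1 FPKM is unknown.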
